A study of Homo sapiens with 2 samples.

Results

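Aminoacyl-tRNA synthetases are described here in KYSE30, an established human line of esophageal squamous cell carcinoma. The members are a list of 36 synthetase genes named by symbol, 20 for cytosolic and 16 for mitochondrial enzymes, matched by Entrez identifier among the 40392 genes of the deposited tables. All 36 were present and listed above 0 in both libraries. They were chosen as a gene family and not by their values, though with earlier results of these data known. Both groups were stable transfectants: mock cells carried the pIRES2-EGFP vector, and RHCG cells a vector for expression of human RHCG, a Rhesus glycoprotein that carries ammonia. Total RNA was sequenced from 1 library per group, after depletion of ribosomal RNA, and the labels do not say whether a transfectant was 1 clone. No test between the groups is therefore possible, and each difference below compares these 2 libraries, in which differences between cultures, clones and library preparations cannot be told apart from that of the vector.

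Each synthetase joins an amino acid to its matching tRNA, the step that fixes the genetic code, and the cytosol and the mitochondrion use separate enzymes for most amino acids. All the mitochondrial enzymes are encoded in the nucleus. GARS1 and KARS1, counted here as cytosolic, each also supply the mitochondrial enzyme from the same gene. When charged tRNA runs short, the kinase GCN2 senses uncharged tRNA and phosphorylates eIF2, which favours translation of the transcription factor ATF4. ATF4 is known to raise many cytosolic synthetase genes together with genes for amino acid synthesis and uptake.

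Levels are given as RPKM, which are read numbers scaled to transcript length and library size, and ratios as the log2 of RHCG over mock with 1 RPKM added to each. Depth, estimated from the step between values of small RNA genes, was about 18900000 reads for mock and 22100000 for RHCG. The RHCG message followed the labels, listed at 0 in mock and at 413 RPKM in RHCG cells. Of 11 squamous epithelial markers 10 were measured, and KRT5, the basal type II keratin, was listed at 0 in both. These markers differed between the libraries more than the synthetases did. Of the 10, 3 (30%, against 3.30% of all genes) were called lower and 0 higher (against 2.74%). Their median log2 ratio was −0.59. The keratin genes KRT6A (38.8 and 3.51 RPKM, −3.14), KRT15 (101 and 27.3 RPKM, −1.85) and KRT13 (407 and 164 RPKM, −1.31) were the 3 called, and EPCAM, an epithelial adhesion molecule, lay the other way (66.5 and 119.9 RPKM, 0.84). Their part in the results below was not tested. Of 18 markers of fibroblasts, endothelium and leukocytes 13 were listed at 0 in both libraries, and the other 5, COL1A1, COL3A1, FBLN1, EGFL7 and CD68, were at 17.2 RPKM or less. The 12857 genes averaging 1 RPKM or more were tested by a 2-fold rule: 352 reached a log2 ratio of 1 (called higher) and 424 reached −1 (called lower).

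The medians of the cytosolic and the mitochondrial enzymes lay on opposite sides of 0, each by a small amount, and both groups held genes on either side. The median log2 ratio was 0.29 over the 20 cytosolic genes and −0.20 over the 16 mitochondrial genes, against −0.01 over all genes tested. Of the cytosolic genes 13 (65%) lay above 0, and of the mitochondrial genes 7 (43.8%), against 49.5% of all genes. By the 2-fold rule 1 cytosolic gene, TARS1, and 1 mitochondrial gene, MARS2, were called higher, and 0 members were called lower. These 2 of 36 (5.56%) stand beside 2.74% called higher and 3.30% called lower among all genes. At 1.5-fold, 6 members (16.7%) were higher and 4 (11.1%) lower, against 11.3% and 11.5% of all genes. These shares are near the background, and the description therefore turns to the groups within the list.

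**Figure D1:**
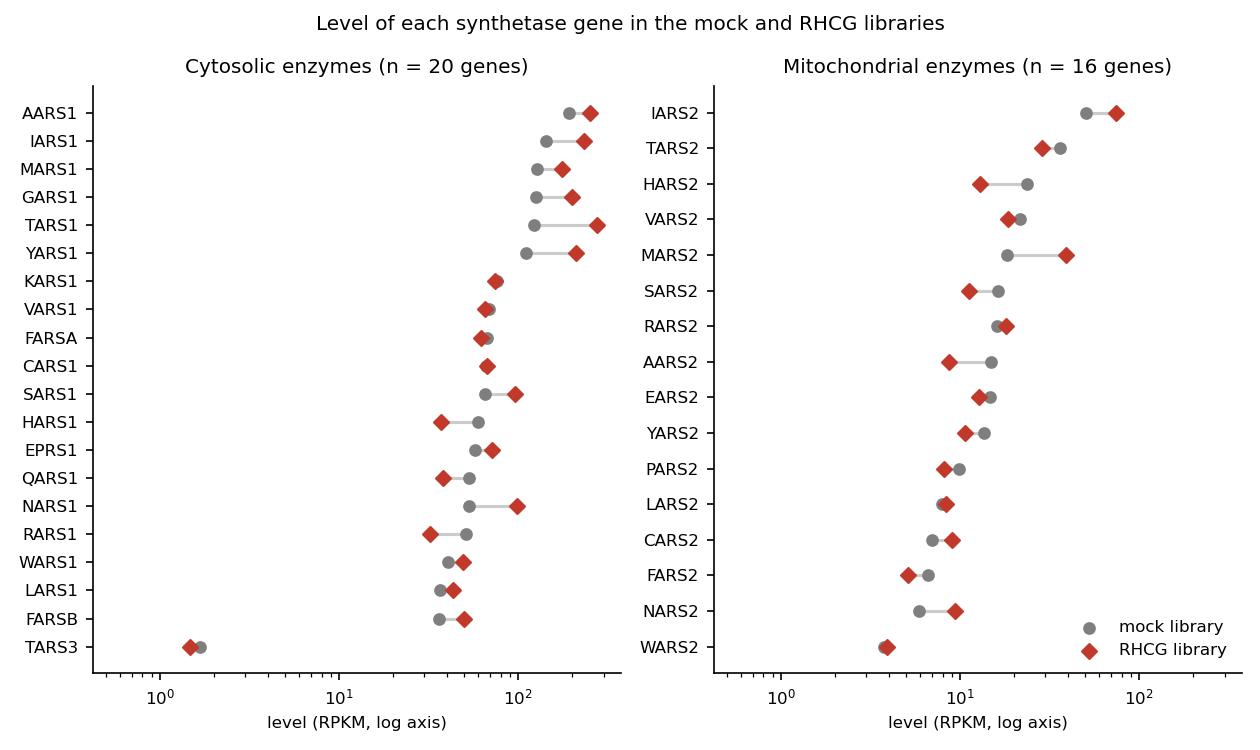
Level of each of the 36 synthetase genes in RPKM (log axis) in the mock library (grey circles) and the RHCG library (red diamonds), 1 library each with no error bar, with cytosolic enzymes on the left and mitochondrial enzymes on the right. The cytosolic genes other than TARS3 lay between 32.4 and 276 RPKM, and no mitochondrial gene exceeded 74.6 RPKM.

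Cytosolic synthetase genes were among the more abundant messages. Their median level was 65.7 RPKM in mock cells and 69.5 RPKM in RHCG cells, against 9.12 and 9.47 RPKM over all genes tested. The median mitochondrial level was 14.8 RPKM and 10.95 RPKM. Summed over the group, the cytosolic genes went from 1555 to 2132.5 RPKM and the mitochondrial genes from 267 to 279 RPKM. In the mock library AARS1 was the highest member at 192 RPKM, and in the RHCG library TARS1 at 276 RPKM. The lowest was TARS3, a second threonyl enzyme of the cytosol that resembles TARS1, at 1.68 and 1.47 RPKM. The sources used here do not give how reads were split between TARS3 and TARS1. Approximate read numbers, from the RPKM, the exonic length and the scaling, ran from 116 reads for TARS3 to 27697 for TARS1, so counting error is small for most members.

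TARS1, the cytosolic threonyl enzyme (Entrez gene 6897, chromosome 5), showed the widest difference of any member. It was at 123 RPKM in mock cells and 276 RPKM in RHCG cells, a log2 ratio of 1.16 with an approximate 95% counting interval of 1.13 to 1.19. Its rank among protein-coding genes tested went from 459 to 122. YARS1, the tyrosyl enzyme, was at 110.4 and 211 RPKM (0.93), just short of 2-fold. NARS1, the asparaginyl enzyme, was at 53.3 and 98.5 RPKM (0.88). The isoleucyl enzyme gene IARS1 was at 143 and 234 RPKM (0.70), and GARS1, the glycyl enzyme of both compartments, at 126 and 199 RPKM (0.65). These 5 (25%, against 11.3% of all genes) were the cytosolic genes past 1.5-fold upwards.

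Next came SARS1, the seryl enzyme, at 65.5 RPKM in mock cells and 96.7 RPKM in RHCG cells (0.56). MARS1, the methionyl enzyme that also charges the initiator tRNA, was at 127 and 176 RPKM (0.47). FARSA and FARSB encode the alpha and beta chains of the same phenylalanyl enzyme. Their values parted: FARSB was at 36.3 and 49.7 RPKM (0.44) and FARSA at 67.1 and 61.9 RPKM (−0.11). The alanyl enzyme gene AARS1 was at 192 and 250.3 RPKM (0.38). EPRS1, which holds the glutamyl and prolyl enzymes in 1 chain, was at 57.5 and 71.8 RPKM (0.32). WARS1, the tryptophanyl enzyme that interferon also induces, was at 40.8 and 49.1 RPKM (0.26), and LARS1, the leucyl enzyme and a leucine sensor for growth signalling, at 36.9 and 43.5 RPKM (0.23).

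A further set differed little or lay lower. CARS1, the cysteinyl enzyme, was at 65.9 and 67.1 RPKM (0.03), KARS1, the lysyl enzyme, at 76.03 and 73.9 RPKM (−0.04), and VARS1, the valyl enzyme, at 68.7 and 65.5 RPKM (−0.07). QARS1, the glutaminyl enzyme, was at 53.5 RPKM in mock cells and 38.0 RPKM in RHCG cells (−0.48). RARS1, the arginyl enzyme, was at 50.9 and 32.4 RPKM (−0.64), and HARS1, the histidyl enzyme, at 59.9 and 37.1 RPKM (−0.68). RARS1 and HARS1 (10%, against 11.5% of all genes) were the cytosolic genes past 1.5-fold downwards. Of all 20, the counting interval of the ratio lay above 0 for 12, below 0 for 5 and across 0 for CARS1, KARS1 and TARS3. These intervals cover counting error only.

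The cytosolic genes were also set out by what is known of ATF4. A list of 13 cytosolic synthetases known as ATF4 targets (AARS1, CARS1, EPRS1, GARS1, IARS1, LARS1, MARS1, NARS1, SARS1, TARS1, VARS1, WARS1 and YARS1) centred on a median log2 ratio of 0.47, with 12 of the 13 above 0, VARS1 being the exception. Counting intervals lay above 0 for 11 of the 13, below 0 for VARS1 and across 0 for CARS1. Past 1.5-fold on this list were 5 higher (38.5%, against 11.3% of all genes) and 0 lower (against 11.5%). The other 7 cytosolic genes (FARSA, FARSB, HARS1, KARS1, QARS1, RARS1 and TARS3) had a median of −0.11, with only FARSB above 0. The counting intervals of KARS1 and TARS3 were across 0. Of these 7, 0 were higher (against 11.3% of all genes) and 2 lower (28.6%, against 11.5%) past 1.5-fold. The median of the 7 became −0.30 at a mean of at least 5 RPKM, where TARS3 drops out, and −0.17 with 0.1 RPKM added in place of 1. The summed level went from 1210 to 1838 RPKM in the first list and from 345 to 294 RPKM in the second. This list was drawn up with earlier results on ATF4 target genes in these libraries known, so it is not independent evidence of its direction.

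**Figure D2:**
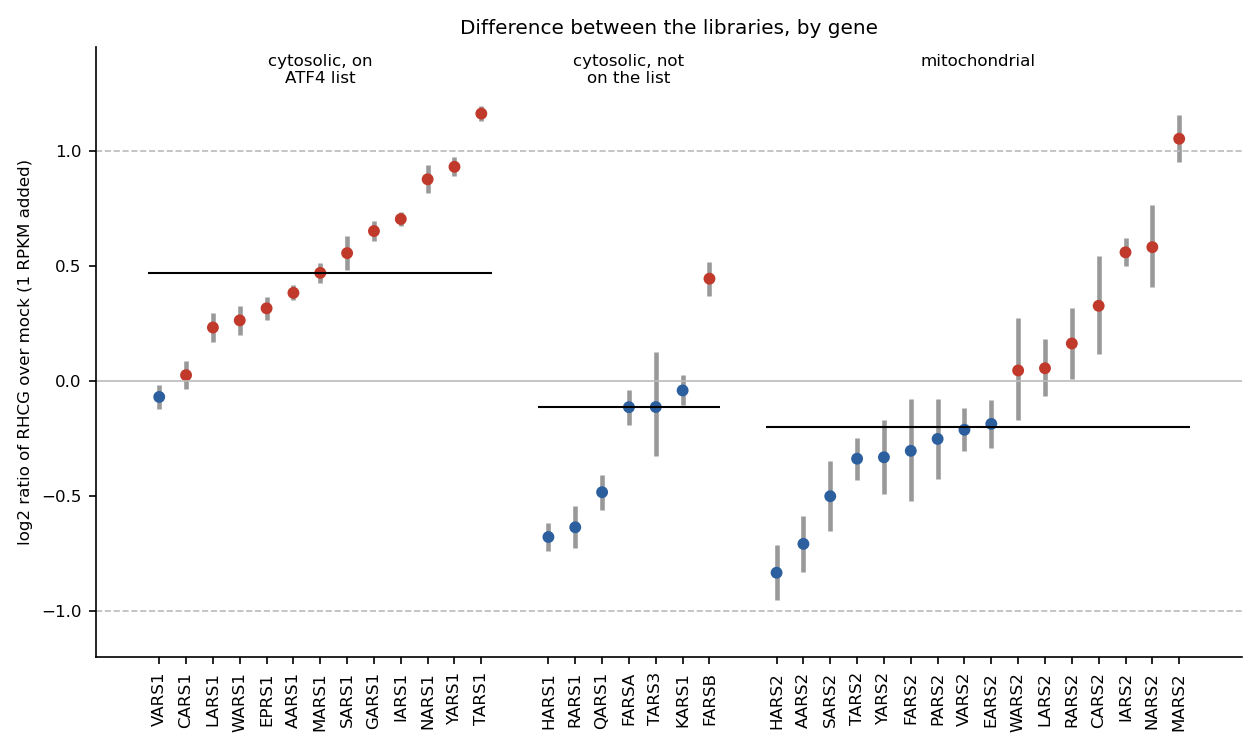
Log2 ratio of RHCG over mock (1 RPKM added) for each synthetase gene, grouped as cytosolic on the ATF4 list (13 genes), other cytosolic (7 genes) and mitochondrial (16 genes). Grey bars are approximate 95% counting intervals, black lines the group medians (0.47, −0.11 and −0.20), dashed lines the 2-fold threshold, and red and blue points ratios above and below 0; TARS1 and MARS2 are the points above the upper dashed line.

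Other genes of the amino acid response had wider differences than the synthetases. Of 23 such genes, all measured, 11 (47.8%, against 2.74% of all genes) were called higher and 0 lower (against 3.30%), with a median log2 ratio of 0.91. The choice of these genes was also made with earlier results of these data known, so their share is not independent evidence. CTH, NUPR1 and VLDLR among them were listed at 0 in mock cells and entered at 1 RPKM. TRIB3, a pseudokinase of the stress response, was at 42.4 and 379 RPKM (3.13), and STC2, the secreted glycoprotein stanniocalcin 2, at 8.18 and 30.7 RPKM (1.79). SESN2, a sestrin that restrains growth signalling, had a ratio of 1.71, and ASNS, asparagine synthetase, 1.60. Not all of the list lay higher: PSPH (0.11), PHGDH (−0.11) and SHMT2 (−0.19), enzymes of serine and glycine synthesis, and the transcription factor ATF5 (−0.14) were near 0. These 4 were chosen after their values were seen. ATF4 itself was at 165 and 228 RPKM (0.46), close to the median of the synthetases on its list. The message level of ATF4 does not give its protein level, which is set largely in translation.

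None of the 4 eIF2 kinases passed 1.5-fold, against 11.3% higher and 11.5% lower among all genes. EIF2AK4, which encodes GCN2, was at 13.5 RPKM in mock cells and 19.2 RPKM in RHCG cells (0.48). EIF2AK3, the kinase PERK of the endoplasmic reticulum, was at 3.34 and 4.27 RPKM (0.28), EIF2AK2, the double-stranded RNA sensor PKR, at 11.6 and 10.0 RPKM (−0.19), and EIF2AK1, the heme-regulated kinase, at 71.0 and 55.1 RPKM (−0.36). The median of 10 other genes of eIF2 control was 0.29. Among them 0 were called lower (against 3.30% of all genes) and 2 higher (20%, against 2.74%). These were PPP1R15A, the stress-induced phosphatase subunit GADD34, at 66.3 and 156 RPKM (1.22), and IMPACT, an inhibitor of GCN2, at 4.09 and 10.7 RPKM (1.20). GCN1, an activator of GCN2, lay the other way at 101 and 66.9 RPKM (−0.59), and EIF2B3, a subunit of the exchange factor of eIF2, had a ratio of −0.53.

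Bases upstream of the transcription start were searched for the core of the C/EBP-ATF response element, TGATGNAA, through which ATF4 acts. RefSeq promoters (build GRCh38.p14) were found for 30 of the 36 members, 39 promoters in all, and the 250 bases before each start were read on both strands. The motif was in 4 of the 39 (10.3%), against 3.14% of all 35116 promoters and 1.54% of the 14142 promoters of genes tested. Exons are those of GENCODE 29. The 4 matches are shown with up to 11 bases on either side, read toward the gene and with the motif in capitals. In AARS1, GARS1 and IARS1 the motif is on the opposite strand, so the capitals show its reverse complement.

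AARS1 (chr16:70289675-70289704, minus strand, in an exon of the neighbouring DDX19B): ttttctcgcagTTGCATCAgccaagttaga
GARS1 (chr7:30594834-30594863, plus strand, before its second listed start and in exons of GARS1 itself): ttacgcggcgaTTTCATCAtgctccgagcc
IARS1 (chr9:92293698-92293721, minus strand, ending at the start and in exons of longer IARS1 transcripts): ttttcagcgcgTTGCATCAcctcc
YARS2 (chr12:32756076-32756105, minus strand, in no exon): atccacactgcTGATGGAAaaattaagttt

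AARS1, GARS1 and IARS1 are all on the ATF4 list and had log2 ratios of 0.38, 0.65 and 0.70. YARS2, the mitochondrial tyrosyl enzyme, had the motif but a ratio of −0.33. Of the 10 genes on the ATF4 list with a promoter to search, 3 thus had a match. CARS1, EPRS1, MARS1, NARS1, SARS1, TARS1 and WARS1 had no match in this window, which says only that these letters are not there. LARS1, VARS1 and YARS1 were not searched. A match is a description of the sequence and shows no binding.

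The stretches before the starts of the 2 genes called higher are shown for comparison. Neither holds TGATGNAA. For TARS1 it is the stretch before the upstream start, which holds no CCAAT box, while the 250 bases before the other start hold 2. The bases capitalized in MARS2 are CCAAT boxes, which stand on the opposite strand and read ATTGG. The CCAAT box, the site of the general factor NF-Y, was in 19 of the 39 member promoters (48.7%) and in 33.4% of the promoters of genes tested.

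TARS1 (chr5:33440620-33440695, plus strand, before the upstream of its 2 starts, in no exon): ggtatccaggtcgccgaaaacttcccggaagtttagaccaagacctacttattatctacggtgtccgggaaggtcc
MARS2 (chr2:197705179-197705368, plus strand, in no exon): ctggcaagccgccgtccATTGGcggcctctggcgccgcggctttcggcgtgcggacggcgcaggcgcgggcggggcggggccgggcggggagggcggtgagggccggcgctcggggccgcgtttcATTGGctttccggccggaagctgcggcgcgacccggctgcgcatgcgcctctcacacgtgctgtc

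Several cytosolic enzymes work in the multisynthetase complex, held together by the scaffold proteins of AIMP1, AIMP2 and EEF1E1. The 7 members in it (EPRS1, IARS1, KARS1, LARS1, MARS1, QARS1 and RARS1) ranged from −0.64 to 0.70, with a median of 0.23, against 0.38 for the 13 cytosolic genes outside it. Its 4 genes on the ATF4 list all lay above 0 and its other 3 all below, though KARS1 (−0.04) had a counting interval across 0. That list was drawn up with earlier results of these data known, so this split is not independent evidence. The scaffolds did not move together: EEF1E1 was at 7.31 and 11.5 RPKM (0.59), AIMP1 at 6.81 and 7.27 RPKM (0.08) and AIMP2 at 63.4 and 48.9 RPKM (−0.37). Synthetases fall into 2 structural classes with unrelated catalytic folds, and EPRS1 holds an enzyme of each. The 9 cytosolic genes of class I centred on 0.23 and ranged from −0.64 to 0.93. The 10 of class II centred on 0.41 and ranged from −0.68 to 1.16, so both classes held genes at either end.

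Of 9 genes for other steps of cytosolic tRNA handling 8 lay above 0, with a median of 0.23. Called higher or lower were 0, against 2.74% and 3.30% of all genes. SSB, the La protein that binds new tRNA transcripts, was at 16.2 and 30.5 RPKM (0.87), and XPOT, which exports tRNA from the nucleus, at 39.5 and 60.9 RPKM (0.61). DTD1, a deacylase that removes mischarged D-amino acids, was at 39.6 and 58.5 RPKM (0.55). The tRNA genes themselves gave no values: all 400 in the tables were listed at 0 in both libraries.

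MARS2, the mitochondrial methionyl enzyme (Entrez gene 92935, chromosome 2), was the mitochondrial gene with the highest ratio. It was at 18.3 RPKM in mock cells and 39.0 RPKM in RHCG cells, a log2 ratio of 1.05 whose approximate counting interval, 0.95 to 1.15, spans the threshold of 1. NARS2, the asparaginyl enzyme of mitochondria, was at 5.94 and 9.38 RPKM (0.58). IARS2, the isoleucyl enzyme and the most abundant of the group, was at 50.3 and 74.6 RPKM (0.56). Above 0 by less were CARS2, the cysteinyl enzyme, at 6.99 and 9.01 RPKM (0.33), and RARS2, the arginyl enzyme, at 16.0 and 18.1 RPKM (0.16). LARS2, the leucyl enzyme, was at 7.98 and 8.33 RPKM (0.06), and the tryptophanyl WARS2 at 3.75 and 3.90 RPKM (0.05). The counting intervals of these last 2 spanned 0.

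The other 9 mitochondrial genes lay below 0, each with a counting interval below 0. HARS2, the histidyl enzyme, was at 23.8 RPKM in mock cells and 12.9 RPKM in RHCG cells (−0.83), and AARS2, the alanyl enzyme, at 14.8 and 8.69 RPKM (−0.71). Both passed 1.5-fold. SARS2, the seryl enzyme, was at 16.4 and 11.3 RPKM (−0.50), and TARS2, the threonyl enzyme, at 36.3 and 28.6 RPKM (−0.34). YARS2 was at 13.6 and 10.6 RPKM (−0.33), and FARS2, the single-chain phenylalanyl enzyme, at 6.59 and 5.15 RPKM (−0.30). PARS2, the prolyl enzyme, was at 9.94 and 8.19 RPKM (−0.25), the valyl VARS2 at 21.7 and 18.6 RPKM (−0.21), and EARS2, the glutamyl enzyme, at 14.7 and 12.8 RPKM (−0.19).

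Mitochondria have no glutaminyl enzyme of their own, and glutaminyl-tRNA is made there by an amidotransferase from glutamyl-tRNA. Its subunits lay on either side of 0: QRSL1 was at 5.19 and 6.19 RPKM (0.22), GATC at 10.6 and 8.52 RPKM (−0.28), and GATB was listed at 0 in both libraries. Of 13 genes for mitochondrial tRNA handling 12 were measured, 9 of them below 0, with a median of −0.21. Called higher or lower were 0, against 2.74% and 3.30% of all genes. The lowest was HSD17B10, a subunit of mitochondrial ribonuclease P, at 40.1 and 21.995 RPKM (−0.84). PRORP, its nuclease subunit, was at 7.96 and 6.61 RPKM (−0.24). MTFMT, which formylates the initiator methionyl-tRNA charged by MARS2, was at 4.07 and 2.98 RPKM (−0.35).

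For the same amino acid, the cytosolic and mitochondrial genes lay on the same side of 0 in 9 of 17 combinations and on opposite sides in 8. Among the same-side combinations, CARS1, LARS2 and WARS2 had counting intervals across 0. The signs of FARSA, VARS1, CARS2 and WARS2 also changed under other settings of the processing. Over the 17 combinations, in which EPRS1 and FARS2 each stand 2 times, the cytosolic gene had the higher level in 17 of 17 in both libraries. The median of the 17 ratios of cytosolic to mitochondrial level was 5.50 in mock and 8.57 in RHCG cells, and the ratio was wider in the RHCG library for 14 of the 17. Apart from the 1 RPKM added, this is the same measure as the difference in log2 ratio, where the cytosolic gene was likewise higher in 14. The largest contrasts were TARS1 and TARS2, whose log2 ratios differed by 1.498, YARS1 and YARS2 (1.26), AARS1 and AARS2 (1.09) and SARS1 and SARS2 (1.06). TARS1 was at 3.38 times the level of TARS2 in mock cells and 9.65 times in RHCG cells. The 3 exceptions, with the mitochondrial gene ahead, were RARS1 and RARS2 (−0.80), MARS1 and MARS2 (−0.58) and CARS1 and CARS2 (−0.30).

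**Figure D3:**
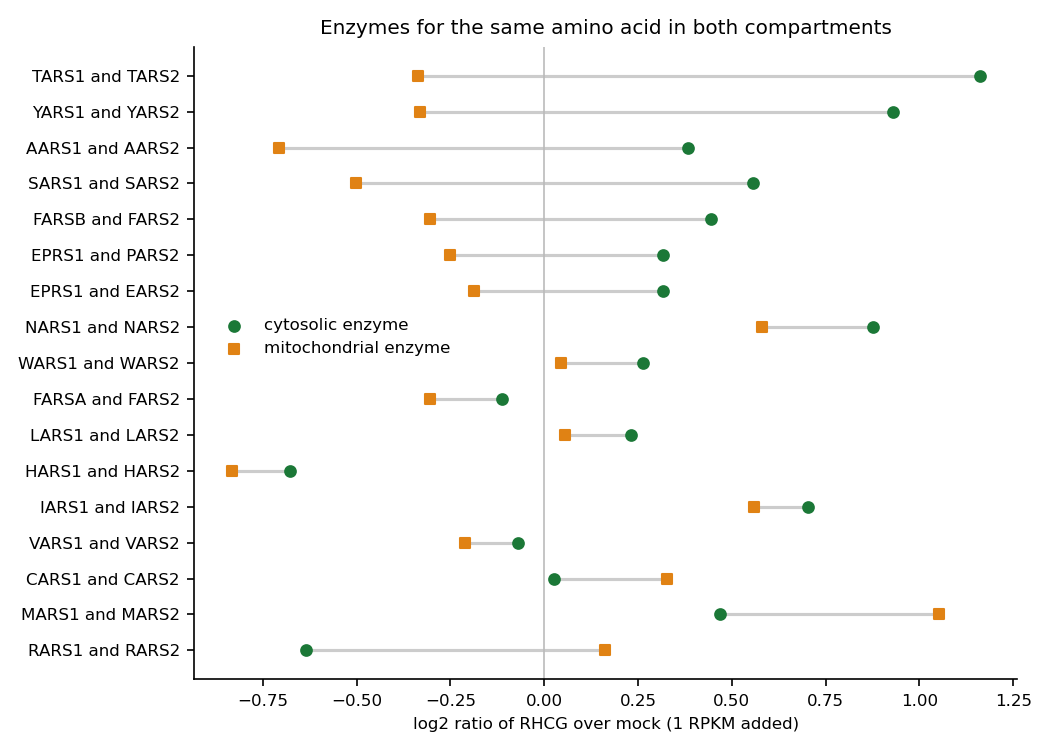
Log2 ratio of RHCG over mock (1 RPKM added) of the cytosolic gene (green circle) and the mitochondrial gene (orange square) for the same amino acid, ordered by their difference, 1 library per group. The cytosolic gene lies to the right in 14 of 17 rows, and the order is reversed for CARS1 and CARS2, MARS1 and MARS2, and RARS1 and RARS2.

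HARS1 and HARS2 were the combination in which both genes passed 1.5-fold downwards, at −0.68 and −0.83. They are divergent neighbours on chromosome 5, and their RefSeq starts are 84 bases apart. Each member was also set beside the median ratio of its 51 nearest protein-coding genes tested, other members left out, and these medians ran from −0.61 to 0.50. This median was −0.30 for both HARS genes, and relative to it they lay at −0.37 and −0.53. For TARS1, on another part of chromosome 5, it was 0.30, and for MARS2 0.18. TARS1 then lay at 0.86 and MARS2 at 0.88, and neither passed 2-fold, while YARS1, whose neighbours lay at −0.09, did at 1.02.

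Some members lay in stretches that ran against them. The neighbours of MARS1 on chromosome 12 had a median of −0.49, those of CARS1 on chromosome 11 one of −0.61 and those of LARS1 on chromosome 5 one of −0.31. Relative to their neighbours MARS1 lay at 0.96, CARS1 at 0.64 and LARS1 at 0.54. VARS1 then lay at 0.10, so all 13 genes on the ATF4 list were above 0, with a median of 0.64. On that list AARS1, EPRS1, IARS1, NARS1 and TARS1 fell and the others rose. FARSA, a cytosolic gene off the list, also rose above 0, from −0.11 to 0.06. The median of the cytosolic genes off the list was then −0.08. The list was drawn up with earlier results of these data known. CARS2, on chromosome 13, had neighbours at 0.50 and lay at −0.18 relative to them. The cytosolic median became 0.41 and the mitochondrial median −0.21. What moves the stretches was not tested.

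**Figure D4:**
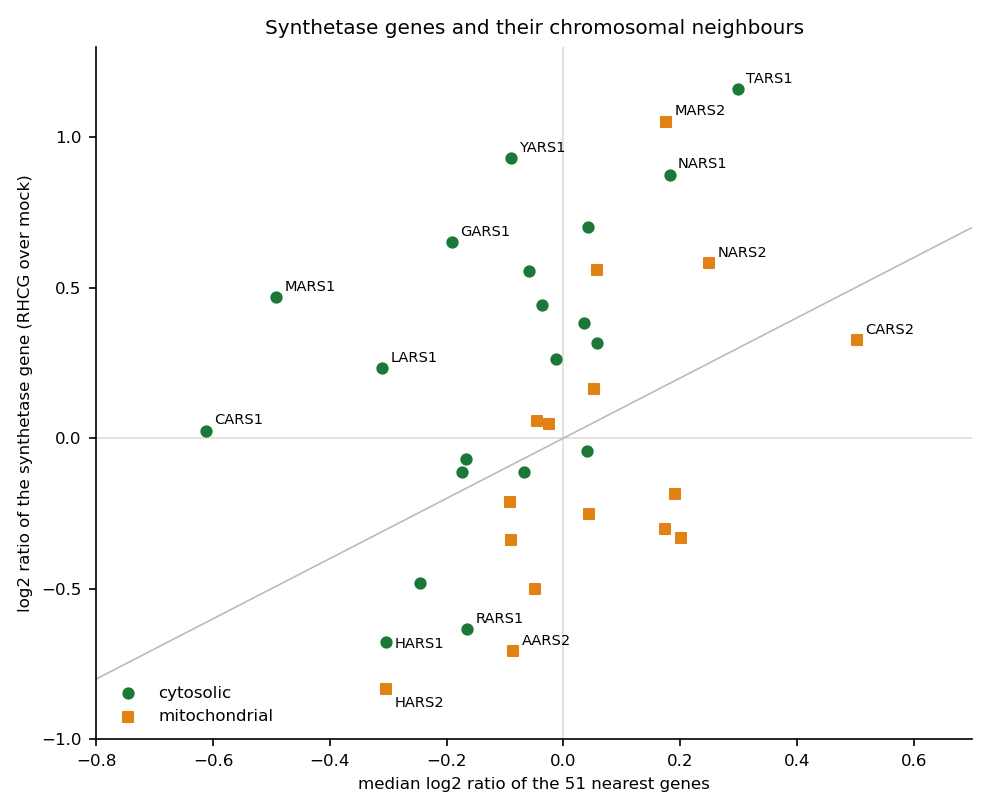
Log2 ratio of each synthetase gene (vertical axis) against the median log2 ratio of its 51 nearest protein-coding genes (horizontal axis), both RHCG over mock, with cytosolic genes as green circles and mitochondrial genes as orange squares, some named. The grey diagonal marks a gene equal to its neighbours; MARS1, CARS1, LARS1 and GARS1 lie above it with neighbours below 0, and CARS2 lies under it with neighbours at 0.50.

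Some members share their locus with other genes, and the sources used here do not say whether reads were counted by strand. The annotated span of MARS1 overlaps that of DDIT3, the stress factor CHOP, which was at 64.7 and 100.4 RPKM (0.63). IARS1 hosts the small nucleolar RNA SNORA84 (786 and 876 RPKM), YARS1 overlaps S100PBP (8.15 and 8.01 RPKM) and EARS2 overlaps GGA2 (26.8 and 19.3 RPKM). GGA2 was above EARS2 itself (14.7 and 12.8 RPKM) in both libraries. For 2 members of lower level the partner was also of like or higher level. WARS2-AS1, over WARS2, was at 5.57 and 6.15 RPKM, and LYRM4, over FARS2, at 4.52 and 4.67 RPKM. ING1, over CARS2, was at 2.82 and 3.19 RPKM. Their part in the values of these members was not tested.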

How the data were processed

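Total RNA of mock and RHCG-transfected KYSE30 cells was sequenced on 1 library each, from libraries made with the Ion Total RNA-Seq kit per the labels' protocols. The submitters' processing notes name hg19 and bedtools 2.25.0, and no aligner or counter is given in the sources used here. Each deposited table has a header of RPKM, but its values are log2 values of RPKM, with none below 0. The scale was checked on small RNA genes: of values under 20 reads, 24.2% and 37.0% lay within 0.002 reads of a whole number after unlogging, so counts were not recovered.

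A value of 0 can stand for 1 RPKM or below, or for an uncounted gene, and was set to 1 RPKM. Rows of 1 gene were summed (40448 rows to 40392 genes). Ratios used a pseudocount of 1 RPKM, a mean of at least 1 RPKM and a 2-fold rule across all 12857 genes, with no test and no p-value. Approximate reads used GENCODE 29 exonic lengths, and intervals are exact (Clopper-Pearson). Gene order and promoters came from RefSeq on GRCh38.p14. All members were named, and from each other list up to 4 genes with the widest ratios plus every eIF2 kinase. ATF4, GATB, QRSL1, KRT5 and genes overlapping members were named for their role or place. CTH, NUPR1 and VLDLR were named for being listed at 0 in mock cells. PSPH, PHGDH, SHMT2 and ATF5 were named after their values were seen. The members and lists were chosen with earlier results of these data known. The rule was tested on simulated data. Tools were scipy 1.17.1 (intervals), statsmodels 0.14.6 (trends), pandas 2.3.3 and numpy 2.4.6 (tables), and matplotlib 3.10.9 (plots), run under Python 3.11.15.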

Additional observations from a re-analysis of the deposited data

How the results depend on the processing

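No paired analysis was possible because mock and RHCG each had 1 library. Leaving out the filter on low values changed no value by construction. With a 0 entered as 1 RPKM, every gene listed in either library averages more than 1 RPKM. Taking the row with the highest total also changed no value. At a ratio of 1.5, 5 cytosolic (25%) and 1 mitochondrial gene (6.25%) were called higher, against 1447 of all genes (11.3%). Called lower were 2 cytosolic (10%) and 2 mitochondrial genes (12.5%), against 1481 of all genes (11.5%). All genes called higher and lower were 533 and 673 with a pseudocount of 0.1 RPKM, and 686 and 1004 when a listed 0 was kept as 0 RPKM, which loosen the rule by construction. Removing the neighbour shift, which tests 11433 genes in place of 12857, left 219 called higher and 308 lower, a cytosolic median of 0.41 and 0 mitochondrial genes higher, and the cytosolic gene called became YARS1 in place of TARS1. With a GC content and length trend removed, the cytosolic and mitochondrial medians were 0.24 and −0.09. Of 36 members 32 kept the sign of their ratio under the alternatives run, the others being FARSA, VARS1, CARS2 and WARS2. Member ratios moved by more than their counting error in 2 settings, for 21 of 36 with the neighbour shift removed and 15 of 36 with the GC content and length trend removed; several other settings leave them unchanged by construction.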
